A study of Mus musculus with 6 samples.

Results

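Of the 6270 Argonaute (Ago) footprints mapped in mouse bone-marrow-derived macrophages, 237 (3.78%) held a 7-nt site for 1 of 6 miRNAs known from myeloid and immune cells: miR-142-3p, miR-223-3p, miR-155-5p, miR-146a-5p, miR-21-5p and let-7a-5p. A footprint is a stretch of RNA that was cross-linked to Ago proteins and recovered with an Ago antibody (HITS-CLIP). Members were chosen by sequence alone, as footprints that contain the reverse complement of bases 2 to 8 (the seed) of a mature miRNA on their own strand. The site of miR-142-3p was present in 49 footprints, that of let-7a-5p in 47, miR-223-3p in 42, miR-155-5p in 41, miR-146a-5p in 36 and miR-21-5p in 27. 5 footprints held sites of a pair of these miRNAs and none held a repeated site of the same one. The footprints lay on 219 genes, and 232 of them (97.9%) overlapped an annotated 3′ UTR on their strand, against 96.7% of all footprints.

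The macrophages came from 3 pairs of C57BL/6 littermates aged 6 to 12 weeks, wild-type (WT) or Apobec1-/- (KO), which lack APOBEC1, an enzyme that deaminates cytidines of mRNA to uridine. Marrow cells were cultured in medium with 20 ng/mL M-CSF and matured for 7 days, with M-CSF at 40 ng/mL in the replaced medium, and no other agent is named. There were thus 3 libraries per genotype, but the table gives 1 occupancy per genotype, the footprint signal divided by the RNA-Seq expression of its transcript, and the number of libraries that held each footprint. The strength of a footprint is here the mean of its KO and WT occupancies. It is relative to expression, so the strongest footprint need not have the most Ago signal. No difference between the genotypes can be tested, and none given here has a replicate check. The depth of the libraries is unknown. Of a macrophage list, 9 of 11 genes carried footprints, among them Emr1, which encodes F4/80, and Itgam, which encodes CD11b. The listed genes Cd68 and Mrc1 did not. Footprints were carried by 0 of 6 genes of T and B cells, 0 of 5 of neutrophils, 0 of 3 of dendritic cells and 0 of 3 of fibroblasts. Footprints do not measure expression, so these counts only say whether a gene carries one. None of those 9 macrophage genes carried a footprint with a site of the 6 miRNAs, beside 219 of all 2223 genes with a footprint.

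A miRNA loaded into Ago pairs through its seed with sites that lie mostly in 3′ UTRs, and the targeted mRNA is then translated less and degraded faster. miR-142 is made throughout the haematopoietic lineage and miR-223 mainly in myeloid cells. miR-155 and miR-146a are induced by Toll-like receptor signalling, which miR-146a restrains. miR-21 is abundant in activated macrophages, and let-7 is a large family expressed in most differentiated cells. A seed match in a footprint is a property of the sequence and does not show which miRNA was bound; miRNA levels in the Ago complexes were not analysed here.

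The mature miRNAs, taken from RefSeq (GRCm38.p6), are shown because their seeds, in capitals, defined the sites.
miR-142-3p: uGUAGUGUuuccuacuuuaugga
miR-223-3p: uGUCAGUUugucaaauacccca
miR-155-5p: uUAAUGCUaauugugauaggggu
miR-146a-5p: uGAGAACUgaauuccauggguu
miR-21-5p: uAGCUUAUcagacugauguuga
let-7a-5p: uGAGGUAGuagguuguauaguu
No seed was shared within the 6. In the RefSeq table the seed of let-7a-5p was shared by 11 mature miRNAs in all, among them let-7b to let-7g, let-7i and miR-98-5p, that of miR-146a-5p also by miR-146b-5p and that of miR-21-5p also by miR-21c. The site cannot separate members of such a family. In mm9 the mature sequences were matched at chr11:87570405-87570427 (miR-142-3p), chrX:93438223-93438244 (miR-223-3p), chr16:84714388-84714410 (miR-155-5p), chr11:43187937-43187958 on the minus strand (miR-146a-5p) and chr11:86397622-86397643 on the minus strand (miR-21-5p, within the annotated 3′ UTR of Vmp1). let-7a-5p was matched at 2 places, chr9:41344815-41344836 and chr13:48633608-48633629, the latter on the minus strand.

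The motifs searched on the footprint strand were ACACTAC for miR-142-3p, AACTGAC for miR-223-3p, AGCATTA for miR-155-5p, AGTTCTC for miR-146a-5p, ATAAGCT for miR-21-5p and CTACCTC for let-7a-5p. They were held by 0.781%, 0.670%, 0.654%, 0.574%, 0.431% and 0.750% of all footprints, in that order. The last 4 bases of the miR-142-3p motif are the first 4 of the let-7a-5p motif, so that these sites can overlap.

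The strongest footprint of each miRNA is shown with its site, 30 bases of mm9 on the transcript strand with the 7-nt match in capitals.
Itgav, miR-142-3p (chr2:83643918-83643947, plus): ttagaacaggtacacattACACTACagttg
Mfhas1, miR-223-3p (chr8:36741108-36741137, plus): ttgacaggaaacatgtcaAACTGACtgttc
Igf1, miR-155-5p (chr10:87397185-87397214, plus): tagatggcttactgagatAGCATTAgatct
Slc23a2, miR-146a-5p (chr2:131879819-131879848, minus): acagggcattccatccctAGTTCTCacagt
Ehd1, miR-21-5p (chr19:6299245-6299274, plus): tgacgtctaggaaaatgcATAAGCTactta
Hmga2, let-7a-5p (chr10:119800039-119800068, minus): aatccccactcctcaataCTACCTCtgaat
For miR-21-5p the footprint of Itgav was stronger than that of Ehd1, and it is the same footprint as for miR-142-3p. The A that follows the capitals in the sites of Itgav, Slc23a2 and Ehd1 lies opposite the first base of the miRNA, a feature known to strengthen targeting.

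Sites of miR-142-3p and let-7a-5p were crowded at the centre of the footprints. For miR-21-5p, miR-155-5p and miR-146a-5p the counts were too few to tell crowding from an even spread. The rule fixes that a site lies inside the footprint, not where. Within 15 nt of the centre there were 30 miR-142-3p sites (95% exact Poisson interval 20.2 to 42.8), where the density found 50 to 200 nt away would give 9.60, a ratio of 3.13. There were 30 let-7a-5p sites there (20.2 to 42.8) against 12.2 from the outer density, a ratio of 2.46. The other ratios were 1.75 for miR-223-3p (20 sites, 12.2 to 30.9, against 11.4), 1.51 for miR-21-5p (14, 7.65 to 23.5, against 9.30), 1.48 for miR-155-5p (20, 12.2 to 30.9, against 13.5) and 1.18 for miR-146a-5p (19, 11.4 to 29.7, against 16.1). The intervals of miR-142-3p, let-7a-5p and, narrowly, miR-223-3p lie above the outer density, and those of miR-21-5p, miR-155-5p and miR-146a-5p include it. Differences between miRNAs were not tested, and the intervals cover the counting error of the central sites only. For the 6 together 133 sites lay near the centre against 72.1. Outer stretches were read from unspliced genomic sequence and held another footprint in 40.3% of cases. Among the 3743 footprints with none, the ratio for the 6 was 2.02. By miRNA it was 3.79 for miR-142-3p, 2.64 for let-7a-5p, 2.00 for miR-223-3p, 1.75 for miR-21-5p and 1.29 for both miR-155-5p and miR-146a-5p. These ratios rest on 10 to 22 central sites per miRNA and have no intervals.

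**Figure D1:**
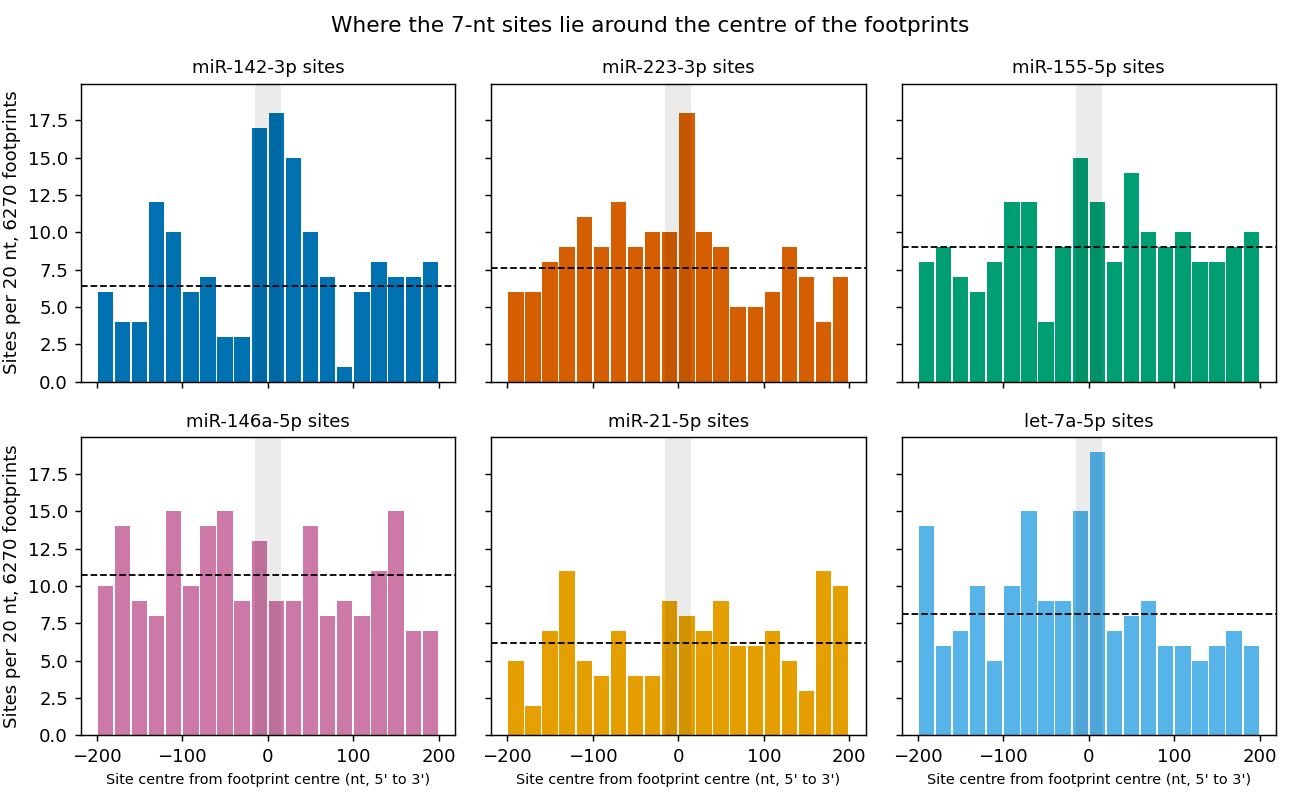
Number of 7-nt sites of each miRNA per 20 nt (y axis) against the distance of the site from the centre of the footprint in nt (x axis, 5′ to 3′), summed over all 6270 footprints. Grey marks the 15 nt on either side of the centre and the dashed line the density 50 to 200 nt away; the bars of miR-142-3p and let-7a-5p at the centre stand at 3.13 and 2.46 times that density over the grey stretch, those of miR-146a-5p at 1.18 times.

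Counted by footprint, 130 of the 237 (54.9%, 95% Wilson interval 48.5% to 61.1%) had a site within 15 nt of the centre, where an even placement within each interval would give 43.7%. The shares were 63.8% for let-7a-5p and 61.2% for miR-142-3p, and between 47.6% and 52.8% for the other 4. An A opposite the first miRNA base followed 82 of the 242 sites (33.9%, 28.2% to 40.1%). It was most frequent for miR-142-3p, at 23 of 49 sites (46.9%, 33.7% to 60.6%), and least for miR-146a-5p, at 8 of 36 (22.2%, 11.7% to 38.1%). Near the centre 17 of 30 miR-142-3p sites (56.7%) had it, against 41.7% of those 50 to 200 nt away. For miR-146a-5p these shares were 10.5% and 29.2%, and for all 6 together 34.6% and 31.9%. Counted by site, the median mean occupancy of the footprint was 0.502 with that A and 0.437 without it. Footprints held by all 6 libraries contained 9 of the 82 sites with it and 9 of the 160 without it.

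The medians and quartiles of occupancy of the 237 footprints were close to those of the whole table, while the highest values, 12.99 in KO and 8.58 in WT, were below the table's maxima of 46.3 and 35.5. In KO the median was 0.403, with quartiles of 0.167 and 0.884, and in WT it was 0.414, with 0.189 and 0.769, beside medians of 0.377 and 0.406 over all footprints. The share of footprints with a site was 3.89%, 3.25%, 4.40% and 3.57% from the lowest to the highest of 4 equal classes of mean occupancy, with overlapping Wilson intervals (the widest from 3.49% to 5.54%), so no trend with occupancy was seen. A site was held by 6 of the 100 strongest footprints. Footprints with a miR-21-5p site most often reached the table median of 0.425 (18 of 27) and those with a miR-146a-5p site least often (14 of 36). Among genes with at least 2 footprints, 47 of 185 footprints with a site (25.4%) were the strongest of their gene, against 23.3% over all such footprints.

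**Figure D2:**
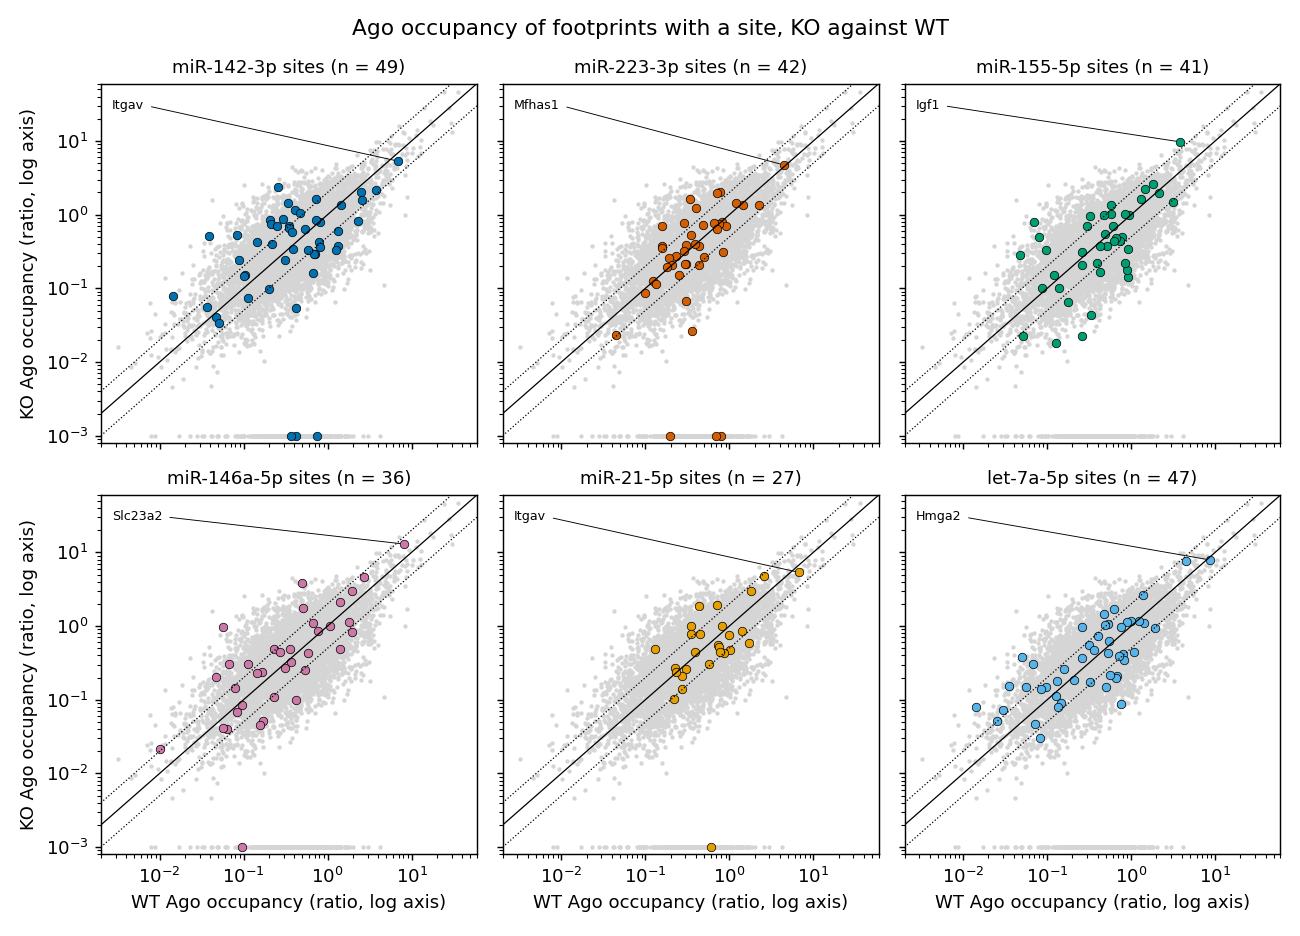
Ago occupancy in KO (y axis) against WT (x axis), both as the authors' ratio on log axes, for footprints with a site of each miRNA (coloured) over all 6270 footprints (grey), with equality as a solid and 2-fold as dotted lines. KO values listed at 0 are drawn at the lower edge. The strongest footprint per miRNA is named, and most of these, such as Hmga2 (7.91 and 8.58), Slc23a2 (12.99 and 8.05) and Itgav (5.34 and 6.81), lie within 2-fold of equality, with Igf1 (9.74 and 3.80) outside it.

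The number of libraries was likewise close to that of the whole table. All 6 libraries held 17 of the 237 footprints (7.17%; 5.89% over all footprints), at least 2 KO libraries held 104 (43.9%; 40.1%) and at least 2 WT libraries 223 (94.1%; 94.9%). No KO library held 53 (22.4%; 27.9%), of which 8 were listed at 0 in KO and 45 had a KO value above 0, for which the sources used here give no origin. Some KO values recurred exactly in other footprints. The miR-142-3p footprints of Gnaq and Rheb, for example, both had 0.289831 in KO with no KO library. A footprint entered the table through at least 2 libraries of 1 genotype. Of the 237, 133 entered through WT alone, 14 through KO alone and 90 through both.

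**Figure D3:**
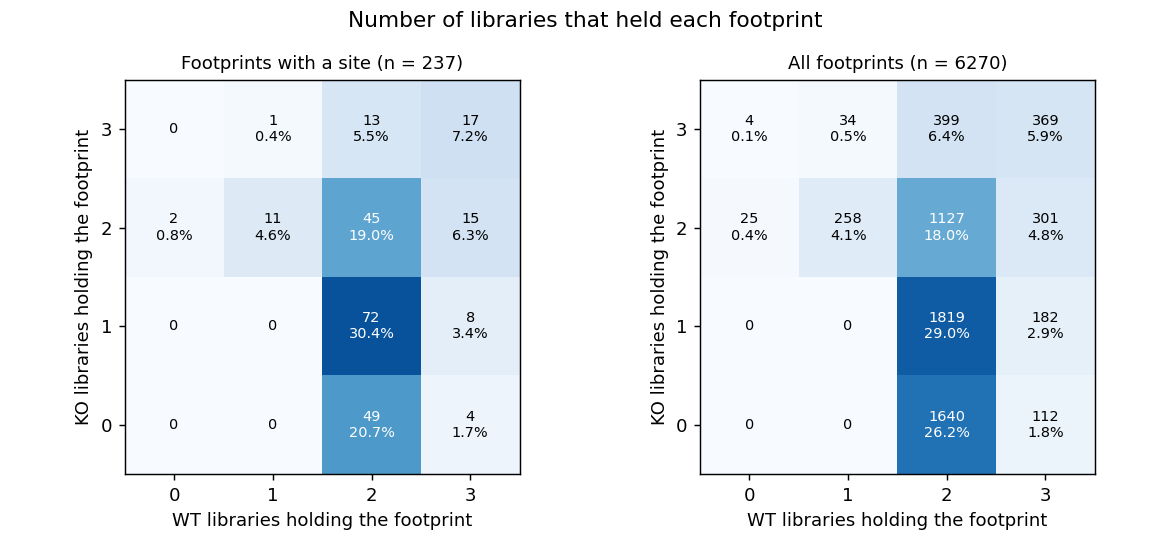
Number and percentage of footprints by the count of WT libraries (x axis) and KO libraries (y axis) that held them, for the 237 footprints with a site (left) and all 6270 (right). Both panels are fullest at 2 WT libraries with 1 KO library (72 and 1819 footprints), and 17 and 369 footprints were held by all 6.

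As a group the 237 footprints did not lean to either genotype. The log2 ratio of KO over WT had a median of 0.0072 (quartiles -0.84 and 0.87), beside -0.04 over all footprints, and 120 footprints were higher and 117 lower in KO. At least 2-fold higher in KO were 53 footprints (22.4%; background 18.9%), and at least 2-fold lower were 53 (22.4%; background 24.2%). By miRNA, the counts at least 2-fold higher and lower were 15 and 13 of 49 for miR-142-3p, 8 and 7 of 42 for miR-223-3p, 9 and 11 of 41 for miR-155-5p, 7 and 8 of 36 for miR-146a-5p, 5 and 5 of 27 for miR-21-5p and 11 and 9 of 47 for let-7a-5p. The median ratio was -0.35 for miR-21-5p, -0.12 for miR-155-5p, -0.10 for miR-142-3p, 0.0060 for miR-223-3p, 0.31 for miR-146a-5p and 0.32 for let-7a-5p. The interquartile ranges of all 6 overlapped.

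Base composition moved with these ratios. Median G+C content was 38.6% in footprints with a miR-21-5p site, 41.3% for miR-155-5p, 43.0% for miR-223-3p, 43.8% for miR-142-3p, 44.5% for miR-146a-5p and 48.6% for let-7a-5p, so the 2 lowest and the 2 highest places were held by the same miRNAs as for the ratio. The Spearman rank correlation between the ratio and G+C content was 0.393 across the 237 footprints, which share the same libraries, and 0.325 across all 6270. The 108 footprints below the table's median G+C content of 42.9% had a median ratio of -0.45, with 14 (13.0%) at least 2-fold higher and 38 (35.2%) lower in KO, and the 129 others had 0.37, with 39 (30.2%) higher and 15 (11.6%) lower. Over all footprints the shares were near these, 10.8% and 33.4% below that content and 26.7% and 15.4% at or above it. For miR-155-5p the medians below and above that content were -0.61 (25 footprints) and 0.85 (16), and for let-7a-5p -0.92 (15) and 0.56 (32). They were -0.86 (20) and 0.54 (29) for miR-142-3p and -0.38 (20) and 0.18 (7) for miR-21-5p. The medians lay closer for miR-223-3p, at -0.29 (18) and 0.15 (24), and closest for miR-146a-5p, at 0.21 (12) and 0.31 (24). The part of base composition in the ratios was not tested.

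**Figure D4:**
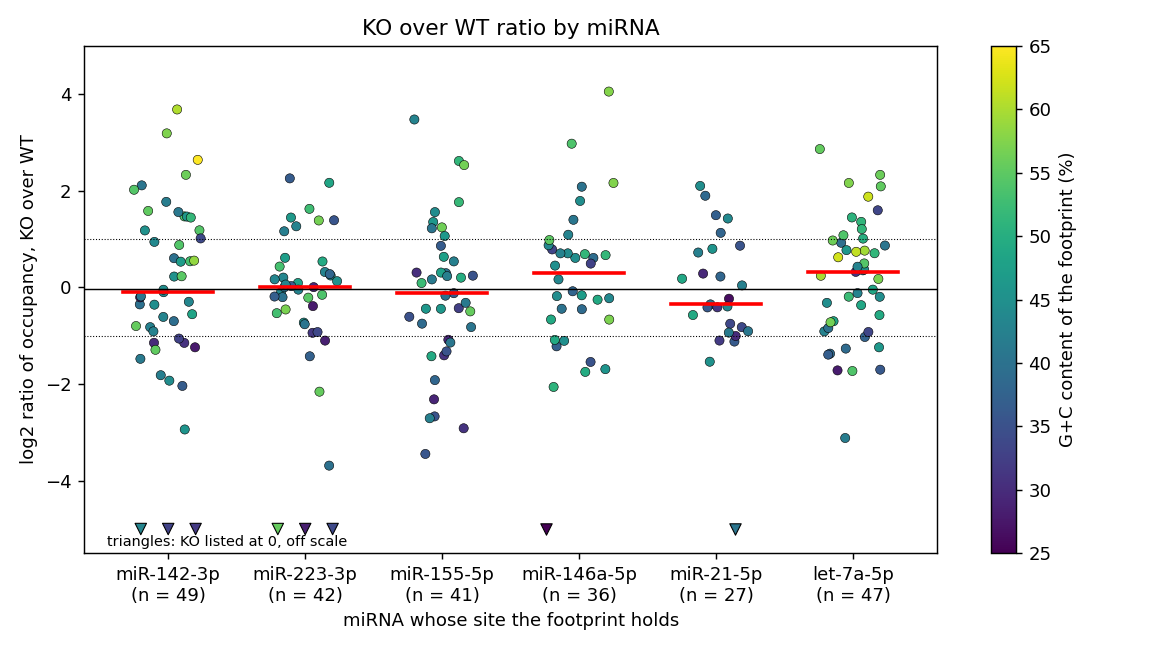
The log2 ratio of occupancy, KO over WT (y axis), of each footprint by the miRNA whose site it holds (x axis), coloured by G+C content in percent. Red lines are medians, from -0.35 for miR-21-5p to 0.32 for let-7a-5p, the solid line is the median of all footprints (-0.04), dotted lines are 2-fold, and triangles are the 8 footprints listed at 0 in KO, drawn off scale.

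The ratios differed by route of entry. A footprint that entered through 1 genotype alone was by definition found in fewer libraries of the other, so ratios by route are no independent result. The 90 footprints held by at least 2 libraries of both genotypes had a median of 0.44 with 27 (30.0%) at least 2-fold higher and 4 (4.44%) lower, beside 0.42 with 26.2% and 5.01% over the 2196 such footprints in the table. The 133 that entered through WT alone had -0.46 (-0.55 over all such footprints), and the 14 through KO alone 2.18 (1.72). Of those 133, 45 were higher in KO. At least 2-fold, 16 (12.0%) were higher and 49 (36.8%) lower, beside 9.99% and 37.5% over all such footprints. Members were also set against the other footprints of their own gene. In 185 cases with at least 1 other footprint the member's log2 ratio minus the median of the others was itself -0.05 at the median (quartiles -0.86 and 1.03), higher in 86 and lower in 99.

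The strongest miR-142-3p footprint lay on Itgav, the integrin αV subunit, and was held by all 6 libraries. Itgav (3′ UTR, chr2:83643900-83643962) had 5.34 in KO and 6.81 in WT, which is lower in KO by less than 2-fold (log2 ratio -0.35). Its site lay 8 nt downstream of the footprint centre and had the A opposite base 1. Of the summed occupancy of the 10 Itgav footprints, this one held 28.8% (KO) and 38.7% (WT).

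The highest miR-142-3p ratios at or above the table's median occupancy were those of Dcakd, with 2.37 in KO and 0.259 in WT (3.19), and Mlxip, a glucose-responsive transcription factor, with 1.45 and 0.334 (2.11). The lowest were those of Slc5a3, a myo-inositol transporter, with 0.334 and 1.28 (-1.93), and Arhgap12, a GTPase-activating protein, with 0.375 and 1.33 (-1.82), the last held by no KO library. The Dcakd footprint was held by 2 KO and 1 WT libraries and had a G+C content of 57.3%. That of Mlxip was held by 1 KO and 2 WT libraries and had a G+C content of 40.5%. A site on Gnaq, which encodes a G protein α subunit, had 0.290 in KO and 0.711 in WT (-1.29), again with no KO library. Rab12, Mgat4b and Atxn1l were listed at 0 in KO, with 0.756, 0.417 and 0.363 in WT.

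miR-223-3p footprints were led by Mfhas1, a leucine-rich repeat protein that tempers Toll-like receptor signalling, with 4.73 in KO and 4.44 in WT (3′ UTR, chr8:36741097-36741161). Its site lay at the very centre of the footprint, which was 75.5% of the gene's summed occupancy in KO and 73.9% in WT. The values of the genotypes were nearly equal (log2 ratio 0.09). Footprints of Sept8, a septin, with 1.42 and 1.19, Gltp, a glycolipid transfer protein, with 0.197 and 0.180, and Vim, the intermediate filament protein vimentin, with 0.0230 and 0.0451, were also held by all 6 libraries. None of these 4 differed 2-fold. Secisbp2l, a SECIS-binding protein homologue, was second in strength with 1.36 in KO and 2.25 in WT, followed by Smg1, which held a pair of sites.

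Higher ratios for miR-223-3p were those of A930001N09Rik, with 1.62 in KO and 0.337 in WT (2.26), and Tbc1d14, a regulator of autophagosome formation, with 0.705 and 0.156 (2.17). G+C content was 36.5% in the former footprint and 48.5% in the latter. Among those above 0 in both genotypes and at or above the table's median occupancy, the lowest was an intronic footprint of Dclre1c, the nuclease Artemis, with 0.313 and 0.844 (-1.42), followed by Secisbp2l (-0.73). Sp3, a transcription factor and known miR-223 target, had 0.204 and 0.440 (-1.10), with 0 KO and 2 WT libraries. Smcr8, Xiap, an inhibitor of caspases, and Pdlim5 were listed at 0 in KO, with 0.804, 0.700 and 0.197 in WT.

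The strongest miR-155-5p footprint lay on the growth factor gene Igf1. It (3′ UTR, chr10:87397185-87397249) was held by all 6 libraries, with occupancies of 9.74 (KO) and 3.80 (WT) and thus a log2 ratio of 1.36. It was 36.2% of the summed occupancy of the 13 Igf1 footprints in KO and 19.8% in WT, and the median ratio of the other 12 was 0.20. Tor1aip1, a nuclear envelope protein, was the other one held by all 6 libraries, with 1.35 and 0.568 (1.24). The second strongest, at chr7:117286200-117286271, had no annotated gene on its strand, and the kinase gene Wee1 ended 573 nt upstream of it. It had 1.48 in KO and 3.13 in WT (-1.08), in 1 KO and 3 WT libraries. Wee1 is on the list of known miR-155 targets used below, where it counts as a gene without a footprint. Rapgef5, an exchange factor for small GTPases, had 2.62 and 1.80.

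Of the known miR-155 targets, Cebpb, a transcription factor of myeloid differentiation, had a site in a footprint with 0.490 in KO and 0.660 in WT (-0.43). Picalm, a clathrin assembly protein, had 0.438 and 0.737 (-0.75), and Ikbke, a kinase of interferon and NF-κB signalling, 0.335 and 0.0974 (1.77). Each of the 3 was held by at least 2 libraries of both genotypes. Their sites are printed because they belong to known targets.
Cebpb, miR-155-5p (chr2:167515848-167515877, plus): agaaccttttccgtttcgAGCATTAaagtg
Picalm, miR-155-5p (chr7:97356924-97356953, plus): gcactacatttaaaactcAGCATTAgtgca
Ikbke, miR-155-5p (chr1:133151725-133151754, minus): gccattggccaacaaactAGCATTActttg
Of these, the site of Cebpb alone has the A opposite base 1. The sites of Cebpb, Picalm and Ikbke lay at 14.5, -4 and -35 nt from the footprint centre (negative is upstream). The highest ratio was that of Akap10, an anchor of protein kinase A, with 0.793 and 0.0698 (3.48) in 2 KO and 0 WT libraries, and the lowest at or above the median occupancy that of Hn1l, with 0.145 and 0.929 (-2.67) in 0 KO and 2 WT libraries. The footprints of Akap10 and Hn1l had G+C contents of 42.9% and 35.3%. 2700078E11Rik carried miR-155-5p sites in 2 footprints that went opposite ways, 0.955 and 0.323 (1.56) at chr19:60602059-60602128 and 0.176 and 0.885 (-2.32) at chr19:60601691-60601762. Their G+C contents were 44.3% and 29.2%.

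The strongest footprint of the whole group held a miR-146a-5p site and lay on Slc23a2, a transporter of vitamin C. It ranked 14 of 6270, with 12.99 in KO and 8.05 in WT (0.69; 3′ UTR, chr2:131879778-131879843), and made up 72.3% (KO) and 54.5% (WT) of the summed occupancy of the gene's 13 footprints. The site lay at -16.5 nt from the centre, where negative distances are upstream. Plekhm3 had 4.66 and 2.70 (0.79), and Tgif1, a repressor in TGF-β signalling, 3.01 and 1.97 (0.61). All 3 were higher in KO by less than 2-fold. Slc23a2, Tgif1 and Akr1a4, an aldehyde reductase (0.0692 and 0.0827), were found in all 6 libraries.

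The largest miR-146a-5p ratio was that of Smad4, a known miR-146a target that relays TGF-β and BMP signals to the nucleus, with 0.963 in KO and 0.0564 in WT (4.06). It was held by 2 KO and 1 WT libraries and had a G+C content of 57.5%. Its site lay at the edge of the footprint, at -36.5 nt from the centre. The median ratio of the other 3 Smad4 footprints was -1.67. Plagl2, a zinc finger transcription factor, had 3.89 and 0.493 (2.98). Osbpl8, a lipid transfer protein, with 0.486 and 1.42 (-1.54), and the proteasome subunit Psmd3, with 0.829 and 1.93 (-1.22), were lowest among those above 0 in both genotypes and at or above the median occupancy. Itm2b was listed at 0 in KO, with 0.0951 in WT.

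miR-21-5p footprints were led by that of Itgav described above, followed by Ehd1, a regulator of endocytic recycling, with 4.74 in KO and 2.60 in WT (0.86; 3′ UTR, chr19:6299257-6299321). The Ehd1 footprint was 94.6% of the gene's summed occupancy in KO and 84.0% in WT. Lpar6, a receptor for lysophosphatidic acid, had 2.96 and 1.79 (0.72). Klf6, a transcription factor, was the third of the miR-21-5p footprints held by all 6 libraries, after Itgav and Ehd1, with 0.439 and 0.776 (-0.82). None of these 4 differed 2-fold between the genotypes.

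The kinase gene Hipk3 had 1.86 in KO and 0.431 in WT (2.10), and Map3k7, the kinase TAK1 that relays Toll-like receptor and TGF-β signals, 1.00 and 0.354 (1.50). These footprints of Hipk3 and Map3k7 had G+C contents of 44.6% and 37.1%. Etnk1, an ethanolamine kinase, had 0.596 and 1.73 (-1.54), and Fcho2, a protein of clathrin pits, 0.469 and 1.02 (-1.12). The known miR-21 target Tgfbr2, a TGF-β receptor, had 0.484 and 0.129 (1.90), in 1 KO and 2 WT libraries. Its site lay at -31 nt from the centre, and the footprint had a G+C content of 38.6%. Slc25a36 was listed at 0 in KO, with 0.604 in WT.

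The strongest let-7a-5p footprint lay on Hmga2, which encodes a chromatin-bending protein and is the best known let-7 target. It had 7.91 in KO and 8.58 in WT (-0.12; 3′ UTR, chr10:119800021-119800083), in 2 KO and 3 WT libraries, and ranked 23 of 6270. It was 67.8% of the gene's summed occupancy in KO and 68.3% in WT, with 1 other footprint. Its site lay 5 nt from the centre and that of 2010109K11Rik, the next in strength, 3.5 nt. 2010109K11Rik had 7.67 and 4.52 (0.76) and was held by all 6 libraries, as were Zfp710, with 1.02 and 0.483 (1.08), and Myo1f, a myosin of leukocytes, with 0.427 and 0.533 (-0.32). A footprint at chrX:33906675-33906831 had 2.66 and 1.40 (0.93). It too had no annotated gene on its strand, and the nearest annotated gene upstream, a U6 snRNA, lay 2677 nt away.

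A let-7a-5p site was also found in a footprint of Eif2c2, which encodes Ago2 itself, with 0.209 in KO and 0.684 in WT (-1.70), and of Cd200r1, an inhibitory receptor of macrophages, with 0.200 and 0.661 (-1.72). Those were the lowest let-7a-5p ratios at or above the median occupancy, and no KO library held either. Ankrd52, a subunit of protein phosphatase 6, had 0.971 and 0.263 (1.88), and 1600012H06Rik 1.44 and 0.475 (1.60). The footprints of Ankrd52 and 1600012H06Rik had G+C contents of 62.0% and 33.3%. Hmga1, related to Hmga2 and also a known target, had 0.214 and 0.556 (-1.37), with no KO library, and the other Hmga1 footprint had a ratio of 1.46. The Hmga1 site lay at -24 nt from the footprint centre and that of Eif2c2 at 12.5 nt. The sites of Eif2c2 and Hmga1 are given to compare with that of Hmga2 above.
Eif2c2, let-7a-5p (chr15:72932150-72932179, minus): tagacagatgcataaaagCTACCTCtgact
Hmga1, let-7a-5p (chr17:27700219-27700248, plus): ttctcctctgttcacaaaCTACCTCtggac
In all 3 the 7-nt match is followed by T and not by A.

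5 footprints joined sites of a pair of miRNAs, and in 2 of them the sites overlapped. On Slc31a1, the copper importer, and Plxnd1, a semaphorin receptor, the miR-142-3p and let-7a-5p matches shared 4 bases, so that the pair spans only 10 bases. On Itgav the miR-142-3p and miR-21-5p sites started 17 nt apart, on Smg1, a kinase of nonsense-mediated decay, the miR-142-3p and miR-223-3p sites 15 nt apart, and on Ncoa3, a nuclear receptor coactivator, the miR-146a-5p and let-7a-5p sites 34 nt apart. Both matches are in capitals, and the overlapping ones form 1 run.
Slc31a1 (chr4:62051332-62051361, plus): gcttgttcccACACTACCTCtttaaagcga
Plxnd1 (chr6:115905378-115905407, minus): atatcccagaACACTACCTCatccacctgg
Itgav (chr2:83643933-83643962, plus): attACACTACagttgacttcATAAGCTact
Smg1 (chr7:125278456-125278485, minus): acacACACTACatcggaagAACTGACttct
Slc31a1 had 0.421 in KO and 0.791 in WT (-0.91), Plxnd1 0.0786 and 0.0143 (2.33), Smg1 1.36 and 1.46 (-0.10) and Ncoa3 0.306 and 0.0670 (2.16). No WT library held the Plxnd1 footprint.

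Of the 219 genes, 205 had 1 footprint with a site, 12 had 2 and 2 had 3. On Plagl2 the 3 footprints held a miR-142-3p site (0.336 in KO and 0.585 in WT), a let-7a-5p site (1.71 and 0.624) and a miR-146a-5p site (3.89 and 0.493), with log2 ratios of -0.80, 1.45 and 2.98. On Slc5a3 they held a miR-142-3p site (-1.93) and 2 miR-146a-5p sites (0.71 and -1.10), among 22 footprints in all.

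A seed site was found in footprints of 10 well-known targets. A list of known targets, written from general knowledge, gave 164 pairs of a miRNA and a gene. In 63 of these the gene carried any footprint, and in 10 (15.9%) a footprint with the site of that miRNA. Among all 2223 genes with a footprint, the share with a site ran from 1.17% for miR-21-5p to 2.20% for miR-142-3p, and the median number of footprints was 2 per gene, against 3 for the listed genes. Listed targets may have become known through such seed sites, so the shares are not on an equal footing. The parts of this and of the number of footprints in the share were not tested. By miRNA, a site was found on 2 of 11 measured targets of miR-142-3p (Itgav and Gnaq), 1 of 9 of miR-223-3p (Sp3), 3 of 18 of miR-155-5p (Cebpb, Picalm and Ikbke), 1 of 6 of miR-146a-5p (Smad4), 1 of 7 of miR-21-5p (Tgfbr2) and 2 of 12 of let-7a-5p (Hmga1 and Hmga2). Measured targets without such a site included Inpp5d, the phosphatase SHIP1, for miR-155-5p, the transcription factor gene Irf5 for miR-146a-5p, the antiproliferative gene Btg2 for miR-21-5p and the receptor gene Tlr4 for let-7a-5p. By summed occupancy of all their footprints, 6 of the 11 miR-142-3p targets were higher and 5 lower in KO, 5 and 4 for miR-223-3p, 8 and 10 for miR-155-5p, 1 and 5 for miR-146a-5p, 1 and 6 for miR-21-5p and 7 and 5 for let-7a-5p. The 63 pairs cover 57 genes, so a gene listed for more than 1 miRNA counts more than once in them, but once in the background. Together 28 of the 63 pairs (44.4%) were higher in KO, against 47.8% of all 2223 genes by the same sum. At least 2-fold, 4 of the 63 (6.35%; background 11.7%) were higher and 8 (12.7%; background 17.9%) lower.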

How the data were processed

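Per the series' design text, the authors aligned reads of 25 nt or more to mm9, joined them into clusters of at least 8 reads and took a footprint around each peak. The authors deposited occupancy as a ratio, footprint signal over RNA-Seq expression, with 1 combined value per genotype. The sources used here do not say how libraries were combined. The submitters' processing notes name Bowtie 0.12.8 and bedtools.

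Each interval was read from NCBIM37, the assembly of mm9, with pysam 0.24.0 and samtools 1.23.1. The strand came from the identifier: 96.7% of footprints overlapped a GENCODE vM1 3′ UTR on that strand and 1.80% on the opposite one. Each footprint took the first class it overlapped of 3′ UTR, then coding sequence, then 5′ UTR, then other exons and introns. Coordinates are mm9, counted from 1. Site distances run from the middle of the 7-nt match to the middle of the interval.

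Log2 ratios used a pseudocount of 0.00161, 50% of the smallest value above 0, and understate differences of low values. A ratio of 2-fold replaced a test. The site search was checked on simulated data. Members and lists were chosen with earlier results of these data known. Named for each miRNA were footprints in all 6 libraries (at most 4), the 3 strongest, the 2 highest and 2 lowest ratios at or above the median occupancy of 0.425 and above 0 in both genotypes, known targets and footprints with 2 sites. Those listed at 0 in KO, genes with 3 footprints and measured targets without a site were added after their values were seen. Some items that this rule names are not reported here.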

Additional observations from a re-analysis of the deposited data

How the results depend on the processing

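No paired analysis was possible because the table holds 1 combined value per genotype, and leaving out a library was not possible for the same reason. Of the 237 footprints, 81 would qualify with an A opposite base 1 required and 155 with the site inside the narrower window of 24 nt before to 22 nt after the centre. The 53 footprints at least 2-fold higher in KO became 3 with a pseudocount of 1, 34 of 125 in the upper 50% of the table by mean occupancy, 27 of the 90 that entered through both genotypes and 20 of the 81 with the A. The 53 at least 2-fold lower became 0, 23, 4 and 21 in the same order. The 81 with the A have no matching set over all footprints, where 18.9% were at least 2-fold higher and 24.2% lower. The median log2 ratio became 0.44 in those 90, a set from which footprints in fewer than 2 KO libraries are missing. Over all footprints, a pseudocount of 1 gave 104 (1.66%) higher and 127 (2.03%) lower. In the upper 50% the shares of members were 27.2% higher and 18.4% lower, beside 20.9% and 20.0% over all footprints. Restricting the position count to footprints with no neighbour in the window was chosen after seeing the data. Depth is unknown, so the precision of a single occupancy cannot be given.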
